A study of Homo sapiens with 6 samples.

Results

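Mitochondrial ribosomal protein genes code for the protein parts of the mitoribosome, the ribosome that works inside mitochondria. They were taken here as the protein-coding genes whose symbol is MRPL or MRPS followed by a digit. GENCODE 29 annotates 78 such genes, 49 named for the large subunit (MRPL) and 29 for the small subunit (MRPS), and transcripts of all 78 were listed among the 13494 genes with FPKM values. RNA came from NALM6, a human leukemia cell line of B-cell precursor origin, kept for 48 h with verteporfin or with its solvent DMSO. There were 3 libraries per group, and both groups grew in the same serum-containing medium. The dose of verteporfin is 0.6 mmol/L per the labels, a high value for cultured cells, and the unit could be a slip. Verteporfin is a porphyrin that blocks the pairing of YAP with TEAD transcription factors, and the study compared Hippo pathway genes without and with it. Nothing in the labels says that the 3 libraries of a group came from separate cultures, so the spread that every p-value rests on is that of these libraries and may be technical.

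The mitoribosome makes the few proteins coded by mitochondrial DNA, all of them parts of the respiratory chain or of ATP synthase. Its RNAs come from mitochondrial DNA, while its proteins are coded in the nucleus, made in the cytosol and imported. Many of these proteins have a counterpart in the bacterial ribosome, and others are found only in mitochondria. In mammals the proteins form a large subunit, which holds the site of peptide bond formation and the exit tunnel, and a small subunit, which reads the messenger RNA. The symbols do not follow the structure in every case. MRPS30 and MRPS18A sit in the large subunit, and MRPS36 is now known as a part of the 2-oxoglutarate dehydrogenase complex rather than of the ribosome.

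The cells carried the markers of their label. All 11 B-cell precursor markers looked for were listed, with a summed level of 1546 to 1889 FPKM in DMSO and 1196 to 1927 FPKM with verteporfin. Of 10 markers of other cells LYZ alone was listed, at 1.33 to 2.56 FPKM. FPKM scale fragments by the length of a transcript and the size of a library, so levels can be compared between genes, but the number of reads behind them is unknown. The libraries numbered 2 stood apart in both groups. Over all 12952 genes tested their deviations from the group means correlated at 0.509. Of the 78 members 39 were highest in DMSO replicate 2 among the DMSO libraries and in verteporfin replicate 2 among the verteporfin libraries. The same held for 28.4% of all genes tested. Medians of most gene groups below, and some of the counts, are therefore also given without both libraries numbered 2. Transcripts of the members were listed at 0 in 11.9% to 16.2% of cases in the DMSO libraries and 2.97% to 9.46% in the verteporfin libraries. Over all transcripts the shares were 14% to 18.7% and 5.2% to 11.3%.

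Together the 78 genes made up less of the measured RNA in verteporfin. Their summed level was 2689, 2629.5 and 2592 FPKM in DMSO replicates 1, 2 and 3 and 1907, 2300.1 and 2192 FPKM with verteporfin replicates 1, 2 and 3. Every verteporfin library lay below every DMSO library. As a share of all FPKM the members took 0.626% ± 0.0117 in DMSO and 0.493% ± 0.0770 in verteporfin (SD, n = 3). Such sums and shares rest most on the abundant members. The median level per member overlapped between the groups, at 22.77, 27.08 and 22.65 FPKM in DMSO and 18.08, 27.1 and 21.74 FPKM with verteporfin. In bulk RNA a lower level per cell cannot be told apart from a lower share of cells that carry the RNA.

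The sum of the large-subunit genes was 1710, 1759 and 1684 FPKM in DMSO and 1235, 1454 and 1410 FPKM with verteporfin. That of the small-subunit genes was 979, 871 and 909 FPKM in DMSO and 672, 846 and 782 FPKM with verteporfin. Neither the large-subunit nor the small-subunit sums overlapped between the groups. Sums weigh the most abundant genes most, and the median level per gene overlapped between the groups in both subunits. In the large subunit this median was 22.9, 27.5 and 24.3 FPKM in DMSO and 18.85, 26.4 and 23.1 FPKM with verteporfin. In the small subunit it was 19.7, 26.4 and 18.9 FPKM in DMSO and 13.6, 31.3 and 21.4 FPKM with verteporfin. The large-subunit sum was 1.75, 2.02 and 1.85 times the small-subunit sum in DMSO and 1.84, 1.72 and 1.80 times in verteporfin, so the balance between the subunits overlapped between the groups.

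**Figure D1:**
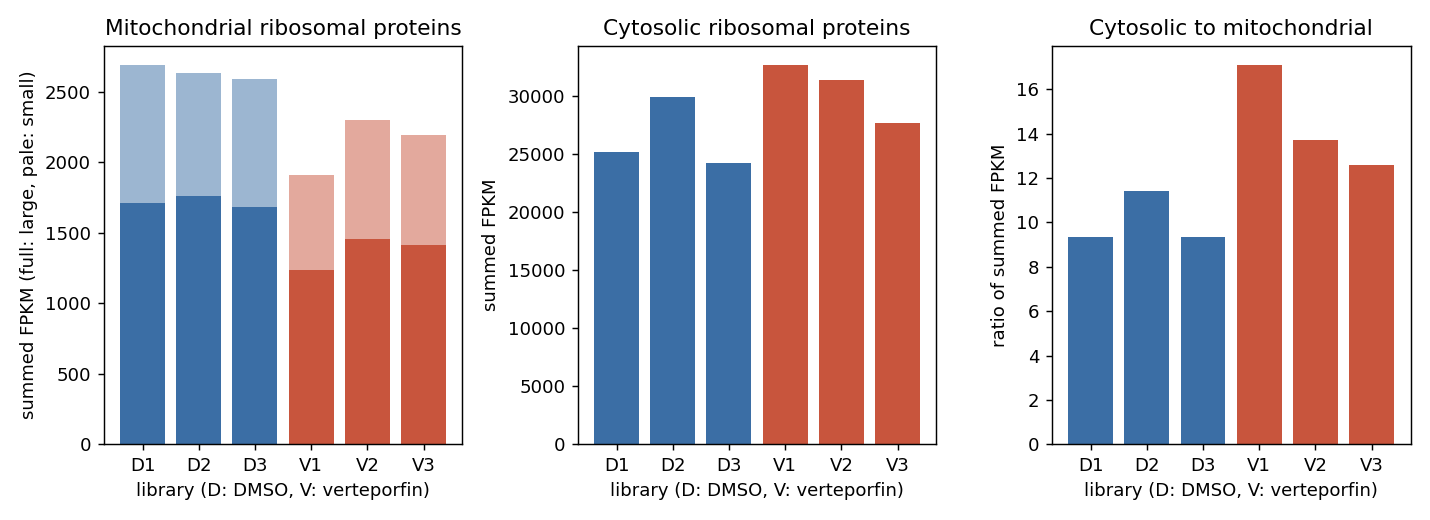
Summed FPKM per library of the mitochondrial ribosomal protein genes (left, large subunit in full colour and small subunit pale), of the cytosolic ribosomal protein genes (middle), and the ratio of the second to the first (right). D1 to D3 are DMSO replicates and V1 to V3 verteporfin replicates; the mitochondrial sums of 1907 to 2300.1 FPKM with verteporfin lie below those of 2592 to 2689 FPKM in DMSO.

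Gene by gene no member passed the test. Levels were compared on log2 of FPKM + 1 with limma over all 12952 genes tested, and each log2 fold change was taken as verteporfin less DMSO. On this scale the change of genes of low FPKM is understated. Of the 78 members 0 had an adjusted p below 0.05, against 0.0154% of all genes tested. At an unadjusted p below 0.05 limma gave 8 members with lower and 0 with higher values in verteporfin, where the backgrounds over all genes were 4.48% and 4.36%. The 8 were 3 without DMSO replicate 3. With library weights 7 members passed at an adjusted p below 0.05, 6 lower and 1 higher, against 3% and 5.35% of all genes. With the replicate number as a block 0 members passed, against 0.309% lower and 0.34% higher over all genes, and 15 were lower and 1 higher at an unadjusted p below 0.05, against 9.45% and 8.24%. The groups did not overlap for 11 members (14.1%), all of them lower in verteporfin, against backgrounds of 7.74% lower and 6.49% higher. Without both libraries numbered 2 the counts of members whose groups did not overlap were 30 lower and 5 higher (38.5% and 6.41%), against 20.9% and 22.1% of all genes.

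The log2 fold change was below 0 for 51 of the 78 members (65.4%) and for 49.3% of all genes tested. The median over the members was -0.14, against 0.01 over all genes. Without verteporfin replicate 1 the 2 medians were 0.00009 and 0.062. The number below 0 depended on single libraries and on the scaling. It was 39 without verteporfin replicate 1, 60 without verteporfin replicate 2 and 53 without both libraries numbered 2, and 43 after quantile normalization.

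The large and the small subunit differed little beside the spread of the libraries. Of the 49 MRPL genes 35 had a log2 fold change below 0, with a median of -0.20 and a range from -1.63 to 0.43. Of the 29 MRPS genes 16 were below 0, with a median of -0.02 and a range from -1.04 to 0.91. Without both libraries numbered 2 the medians were -0.25 and -0.14, and without verteporfin replicate 1 they were -0.17 and 0.054. The small-subunit median was also 0.0080 without DMSO replicate 2. With all libraries the difference of the medians, large minus small, was -0.18. A related measure is the difference, within each library, between the median log2 levels of the subunits. It averaged 0.207 in DMSO and 0.105 in verteporfin. Its pooled SD between libraries was 0.263, which is larger than the change in either measure. This SD is a spread of single libraries with transcripts summed per gene. It is not the error of a difference of median fold changes. With the most abundant transcript only the median fold changes were -0.345 and 0.0016, further apart than this SD. Subunits were also taken from the structure of the mammalian mitoribosome, so that MRPS30 and MRPS18A counted as large and MRPS36 as neither. With transcripts summed as in the main fit the medians were then -0.18 (51 genes) and -0.09 (26 genes). Without both libraries numbered 2 they were -0.243 and -0.205.

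**Figure D2:**
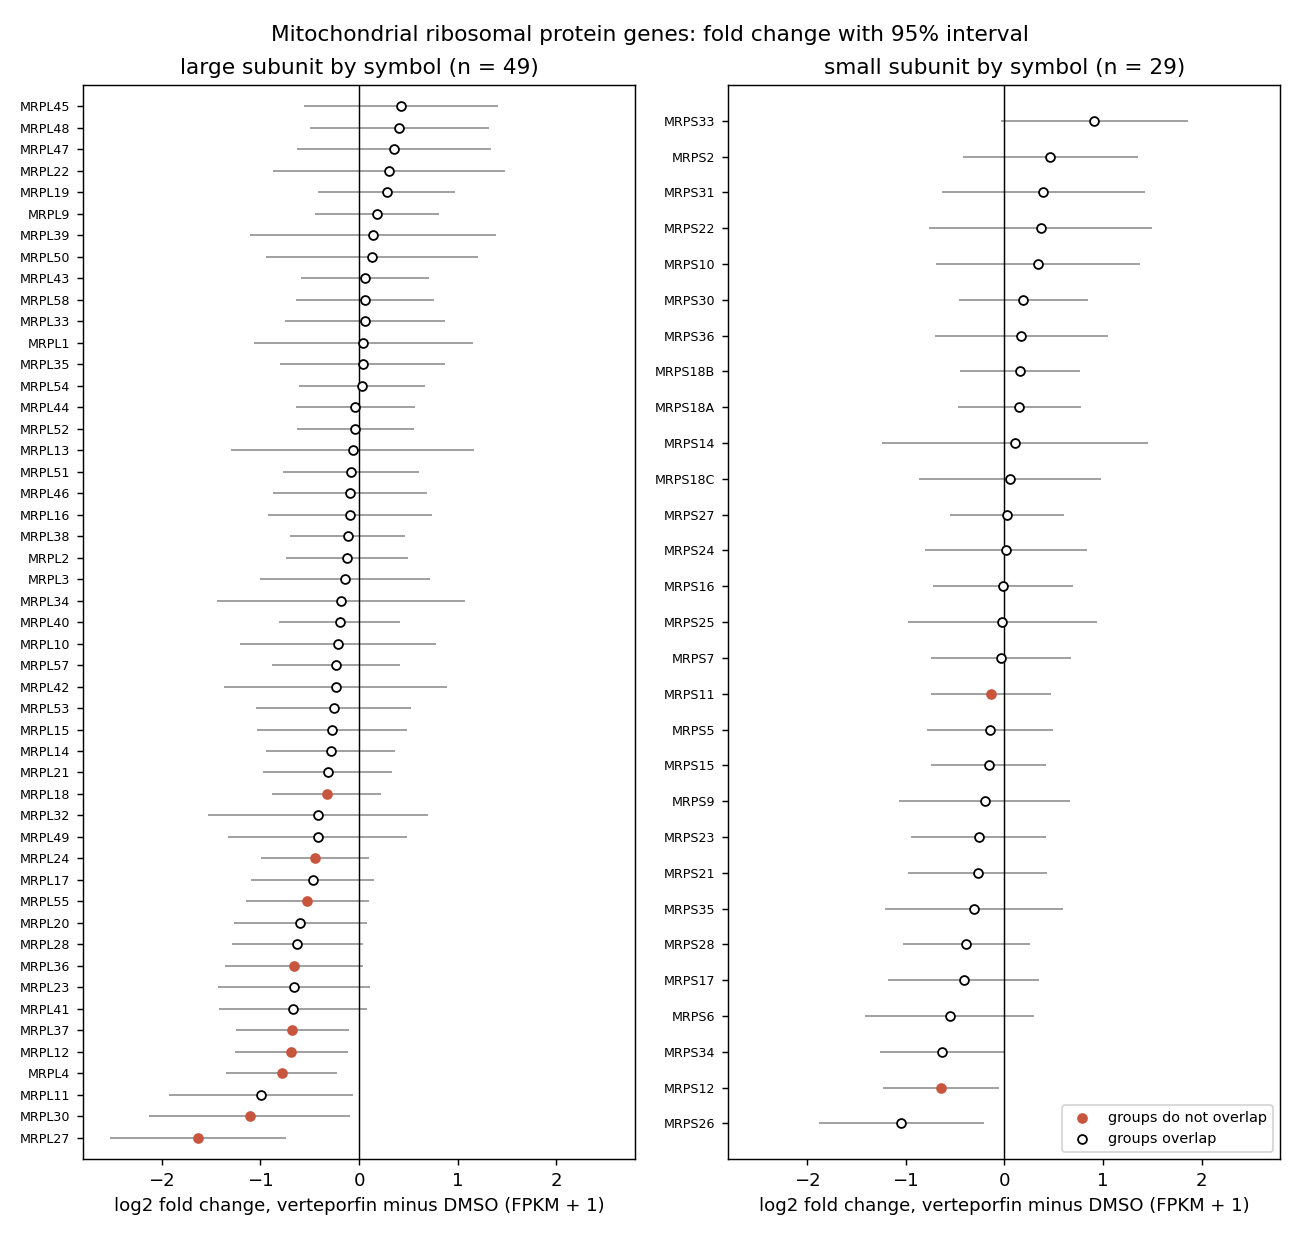
Log2 fold change of each of the 49 large-subunit (left) and 29 small-subunit genes (right), with its 95% interval from limma; filled points mark genes whose 3 verteporfin libraries all lay on one side of the 3 DMSO libraries. The filled points, 9 on the left and 2 on the right, are all below 0, and most intervals include 0.

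Within the large subunit the genes with a bacterial counterpart lay lower than the others. Of 30 such genes 23 had a log2 fold change below 0, with a median of -0.30, and the groups did not overlap for 8 (26.7%, against 7.74% of all genes), all lower. Of the 21 large-subunit genes without one in the naming of the structures 12 were below 0, with a median of -0.04, and the groups did not overlap for 1 (4.76%). These medians were -0.39 and -0.12 without both libraries numbered 2. Leaving out single libraries gave -0.43 (without verteporfin replicate 2) to -0.23 (without verteporfin replicate 1) for the first class and -0.21 to 0.057 for the second, without the same libraries. In the small subunit 11 of 16 genes with a bacterial counterpart were below 0 (median -0.14) and 5 of 10 without one (median 0.0035). These medians were -0.23 and 0.038 without both libraries numbered 2. They ran from -0.28 (without verteporfin replicate 2) to -0.023 (without verteporfin replicate 1) and from -0.29 (without verteporfin replicate 2) to 0.20 (without DMSO replicate 2). The median level of the 30 large-subunit genes was 29.2 FPKM and that of the 21 was 23.0 FPKM. Whether these classes differ was not tested.

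MRPL27 (ENSG00000108826), the counterpart of a bacterial protein that reaches to the site of peptide bond formation, had the largest difference among the members. It was at 52.9, 25.1 and 46.2 FPKM in DMSO and 8.12, 20.6 and 10.3 FPKM with verteporfin. All verteporfin libraries were lower, with verteporfin replicate 2 close to DMSO replicate 2. The log2 fold change was -1.63 with a standard error of 0.40, and its p by limma was 0.00208 unadjusted with an adjusted p of 0.369 over all genes. Leaving out single libraries gave -2.0 to -1.37, and without both libraries numbered 2 it was -2.31.

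MRPL4 (ENSG00000105364), whose bacterial counterpart lines the exit tunnel, was at 118, 95.3 and 124 FPKM in DMSO and 64.8, 57.3 and 71.5 FPKM with verteporfin. The groups were well apart (log2 fold change -0.79, standard error 0.25, adjusted p = 0.429 by limma). MRPL12 (ENSG00000262814) forms the stalk that calls translation factors to the ribosome and is also known to bind the mitochondrial RNA polymerase. It was at 164, 126 and 124 FPKM in DMSO and 82.6, 75.2 and 97.9 FPKM with verteporfin, again with no overlap (log2 fold change -0.69, standard error 0.26, adjusted p = 0.485). Its partners at the base of the stalk had less even values. MRPL11 was at 19.0, 46.2 and 21.1 FPKM in DMSO and 11.1, 21.3 and 8.89 FPKM with verteporfin (log2 fold change -0.99, adjusted p = 0.539), with verteporfin replicate 2 inside the DMSO range. MRPL10, which anchors the stalk, was at 11.6, 6.72 and 13.3 FPKM in DMSO and 16.8, 7.61 and 4.79 FPKM with verteporfin, so that the groups overlapped fully (log2 fold change -0.21, 95% interval -1.20 to 0.78).

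MRPL37 (ENSG00000116221), a large-subunit protein with no bacterial counterpart, was at 84.2, 88.0 and 77.2 FPKM in DMSO and 50.7, 61.8 and 43.6 FPKM with verteporfin. Its groups did not overlap (log2 fold change -0.68, standard error 0.26, adjusted p = 0.488 by limma). MRPL30 (ENSG00000185414), the counterpart of bacterial L30, was less abundant, at 7.08, 10.3 and 7.80 FPKM in DMSO and 1.14, 4.0 and 6.48 FPKM with verteporfin (log2 fold change -1.11, adjusted p = 0.528, and -0.60 without the library that moved it most). The verteporfin libraries of MRPL30 were far apart, and verteporfin replicate 3 came close to DMSO. MRPL24, MRPL36, MRPL55 and MRPL18, which all have bacterial counterparts, were the other large-subunit genes without overlap, with log2 fold changes of -0.44, -0.66, -0.52 and -0.33. MRPL24 was the tightest of them, at 49.6, 47.2 and 47.2 FPKM in DMSO and 33.0, 35.0 and 37.4 FPKM with verteporfin. MRPL28, the third most abundant large-subunit gene, was at 93.7, 69.4 and 100.5 FPKM in DMSO and 73.5, 41.0 and 58.1 FPKM with verteporfin, with overlap (log2 fold change -0.62, adjusted p = 0.572).

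**Figure D3:**
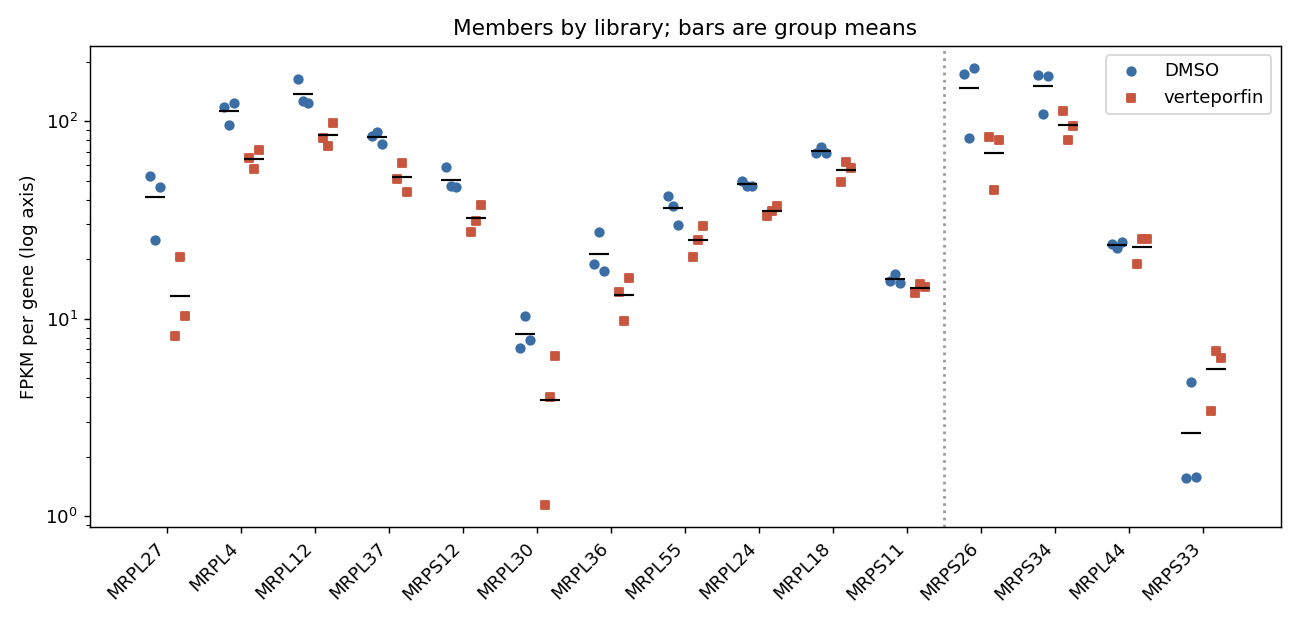
FPKM of 15 members in each library on a log axis, with circles for DMSO, squares for verteporfin and bars at the group means. Left of the dotted line are the 11 members whose groups did not overlap, from MRPL27 to MRPS11; right of it are MRPS26, MRPS34, MRPL44 and MRPS33, whose groups overlapped.

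Not every large-subunit gene was lower. MRPL44, a mitochondrial protein with a fold like that of RNA-cutting enzymes, was nearly level at 23.8, 22.7 and 24.3 FPKM in DMSO and 18.8, 25.5 and 25.2 FPKM with verteporfin (log2 fold change -0.04, 95% interval -0.64 to 0.56). MRPL3, known like MRPL44 from inherited heart muscle disease, ranged from 44.7 to 113 FPKM in DMSO and from 41.5 to 86.2 FPKM with verteporfin (log2 fold change -0.14, 95% interval -1.0 to 0.72). Under the settings run this fold change ranged from -0.647 to 0.218. Its most abundant transcript, ENST00000510923, is annotated with a retained intron. It was at 69.1, 2.28 and 18.1 FPKM in DMSO and 59.1, 1.48 and 8.11 FPKM with verteporfin. The next, ENST00000264995, is protein coding and was at 30.7, 32.6 and 26.3 against 2.07, 26.95 and 15.6 FPKM. Protein-coding ENST00000512877 was at 0 in DMSO and 0, 0.955 and 46.1 FPKM with verteporfin. MRPL58, a peptide release enzyme built into the large subunit, was at 23.4, 27.5 and 23.4 FPKM in DMSO and 19.1, 38.6 and 23.1 FPKM with verteporfin (log2 fold change 0.06). For MRPL45, which binds the ribosome to the inner membrane, the log2 fold change was 0.43 (adjusted p = 0.821), and -0.03 without verteporfin replicate 2, where it was at 33.3 FPKM against 10.7 and 14.5 FPKM in the other verteporfin libraries. The value for MRPL48 was 0.41 (adjusted p = 0.811). These intervals leave room for differences of either sign.

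The small subunit held the most abundant member. MRPS34 (ENSG00000074071), mutated in a form of Leigh syndrome, was at 172, 109 and 169 FPKM in DMSO and 112, 80.7 and 94.1 FPKM with verteporfin. Only verteporfin replicate 1 overlapped with DMSO, through DMSO replicate 2 (log2 fold change -0.63, standard error 0.28, adjusted p = 0.563 by limma). MRPS26 (ENSG00000125901), found only in mitochondria, was at 174, 82.5 and 187 FPKM in DMSO and 83.2, 44.7 and 80.4 FPKM with verteporfin. The libraries numbered 2 were the lowest of both groups, and without them the log2 fold change was -1.13 against -1.04 with all libraries (adjusted p = 0.464). MRPS12 (ENSG00000128626), the counterpart of the bacterial protein that guards the accuracy of decoding, was at 58.5, 47.2 and 46.4 FPKM in DMSO and 27.5, 31.4 and 37.7 FPKM with verteporfin. Its groups did not overlap (log2 fold change -0.64, adjusted p = 0.528). MRPS11, the other small-subunit gene without overlap, differed by less, at 15.5, 16.8 and 15.2 FPKM in DMSO and 13.6, 15.0 and 14.4 FPKM with verteporfin (log2 fold change -0.14).

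Of the 5 members with the largest log2 fold changes above 0 3 were small-subunit genes, and their levels were low or uneven. MRPS33 was at 1.55, 4.76 and 1.58 FPKM in DMSO and 3.40, 6.87 and 6.34 FPKM with verteporfin (log2 fold change 0.91, standard error 0.43, adjusted p = 0.565 by limma). In MRPS33 DMSO replicate 2 lay above verteporfin replicate 1. With its most abundant transcript only, ENST00000324787, the log2 fold change was 0.0016. That transcript was at 0.498, 1.96 and 0.995 FPKM in DMSO and 0.837, 1.37 and 1.04 FPKM with verteporfin. MRPS2 was at 62.1, 24.7 and 18.9 FPKM in DMSO and at 43.4, 42.9 and 42.5 FPKM with verteporfin, so that its log2 fold change was 0.47 with all libraries and 0.96 without DMSO replicate 1. The log2 fold change of MRPS31 was 0.40 (adjusted p = 0.848). That of MRPS22, mutated in inherited mitochondrial disease, was 0.37, and -0.21 without verteporfin replicate 2, where MRPS22 was at 33.2 FPKM against 6.65 and 12.9 FPKM in the other verteporfin libraries. MRPS5, MRPS7 and MRPS16, all with bacterial counterparts, had log2 fold changes of -0.14, -0.03 and -0.02, with 95% intervals of -0.78 to 0.50, -0.74 to 0.67 and -0.72 to 0.69.

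The genes whose symbols do not match their place in the ribosome showed no clear difference. MRPS30, of the large subunit, was at 26.4, 20.4 and 25.7 FPKM in DMSO and 20.8, 35.7 and 28.3 FPKM with verteporfin (log2 fold change 0.19, 95% interval -0.46 to 0.85). Mammals have 3 proteins related to bacterial S18, of which MRPS18A sits in the large and MRPS18B and MRPS18C in the small subunit. Only MRPS18C takes the place of S18 in the structures, and the other two were counted above among the genes without a bacterial counterpart. Their log2 fold changes were 0.15, 0.16 and 0.06, and each interval included 0. MRPS36 was among the least abundant members, at 2.35, 3.62 and 2.54 FPKM in DMSO and 2.19, 6.15 and 2.43 FPKM with verteporfin.

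The other 45 members overlapped between the groups. Of the 32 in the large subunit 21 had a log2 fold change below 0, from -0.67 in MRPL41 to 0.35 in MRPL47, and 23 lay within 0.3 of 0. Of the 13 in the small subunit 9 were below 0, from -0.55 in MRPS6 to 0.34 in MRPS10, and 8 lay within 0.3 of 0. MRPL41, a protein of the large subunit, was at 21.5, 13.5 and 22.5 FPKM in DMSO and 14.6, 8.05 and 12.4 FPKM with verteporfin. MRPL20, the counterpart of a bacterial protein of early assembly, was at 58.6, 70.0 and 63.2 FPKM in DMSO and 30.5, 61.0 and 39.5 FPKM with verteporfin, where replicate 2 reached the DMSO range (log2 fold change -0.59).

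Abundant members had the lower log2 fold changes. All 9 members with a mean of at least 60 FPKM had a log2 fold change below 0, with a median of -0.63, while 68.3% of protein-coding genes at such levels were below 0, with a median of -0.17. Of the 10 members below 10 FPKM 2 were below 0 (20.0%, median 0.15), against 38.6% of protein-coding genes of that range (median 0.13). Between 10 and 30 FPKM 26 of 39 members were below 0 (66.7%, against 53.3%), and between 30 and 60 FPKM 14 of 20 (70.0%, against 65.8%).

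Base composition moved with these differences. The share of G and C in the most abundant transcript of each member correlated across the 78 genes with the excess of the libraries numbered 2 over the others, at a Pearson r of -0.736 and a Spearman rho of -0.742. It correlated with the log2 fold change at -0.435 and -0.456. Over all 12952 genes these values were -0.674 and -0.693 for the excess and -0.308 and -0.336 for the fold change. These are relations across genes of the same libraries, and genes are not independent replicates. The 39 members highest in both libraries numbered 2, such as MRPS22 and MRPL45, had a median share of 45.8% G and C and a median log2 fold change of -0.03. The 8 members lowest in both, MRPL3, MRPL4, MRPL28, MRPL41, MRPL53, MRPL54, MRPS26 and MRPS34, had 63.5% and -0.63. The split was not particular to the members. Of all genes tested 28.4% were highest in both and 20.5% lowest in both. Their median shares of G and C were 43.8% and 60.3%, and their median log2 fold changes 0.14 and -0.26. Level also went along with base composition, with a median of 16.1 FPKM in the 39 members and 71.0 FPKM in the 8. With the trend against G and C removed from each library, a setting chosen after seeing the data, 57 of 78 members had a log2 fold change below 0 and no member was among the 18 genes called. MRPL27 was then at -1.61, MRPL37 at -0.62 and MRPS26 at -0.77, while MRPL4 was at -0.49, MRPL12 at -0.38, MRPS12 at -0.43, MRPS34 at -0.31 and MRPL55 at -0.24.

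**Figure D4:**
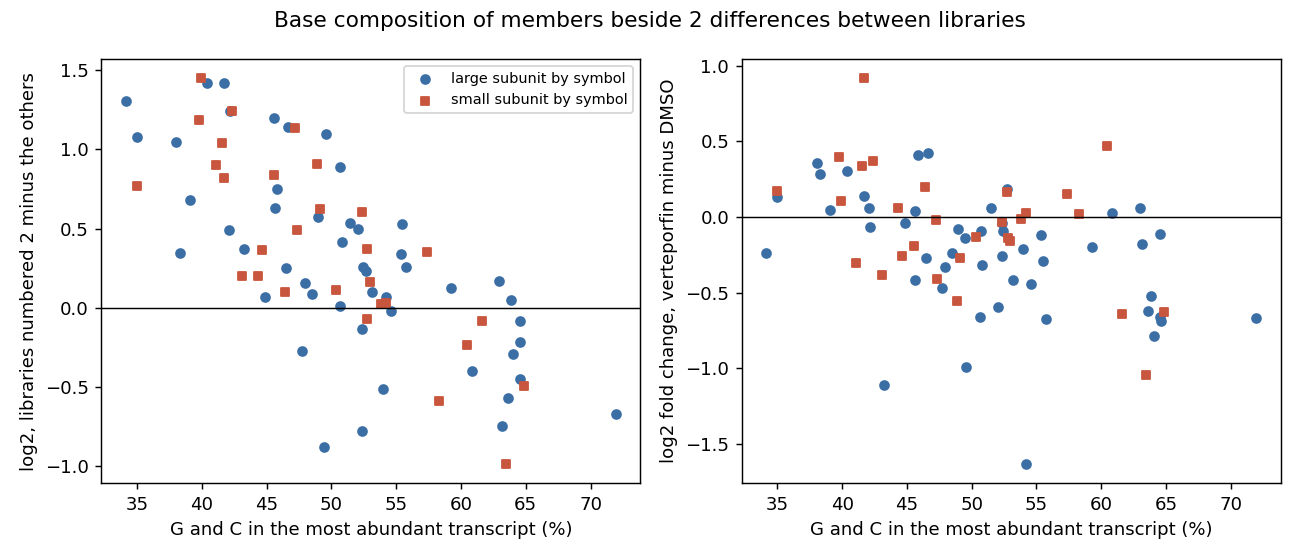
Each point is 1 of the 78 members, by the share of G and C in its most abundant transcript; circles are large-subunit and squares small-subunit genes. The left plot gives the log2 difference between the libraries numbered 2 and the others, averaged over both groups, and the right plot the log2 fold change; the Spearman rho across genes is -0.742 on the left and -0.456 on the right.

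The genes counted here were sums of several transcripts. The 78 members had 370 listed transcripts, with a median of 4 and up to 22 (MRPL55) per gene, and 9 members had a single one. Transcripts annotated as protein coding took 85.5%, 86.7% and 85.6% of the members' FPKM in DMSO and 79.8%, 85.4% and 83.9% in verteporfin, all of them lower. Those annotated as processed transcripts took 3.52%, 4.49% and 4.1% in DMSO and 5.36%, 6.59% and 5.91% in verteporfin, all of them higher. Those with a retained intron took 11%, 8.79% and 10.3% in DMSO and 14.8%, 8.02% and 10.2% in verteporfin, with overlap. Over all protein-coding genes the protein-coding transcripts took 78.7% to 80.4% in DMSO and 79.6% to 82.8% in verteporfin, and processed transcripts 5.86% to 6.47% and 5.47% to 6.66%, with overlap in both. Whether the members differ from other genes in this was not tested. When transcripts were tested one by one, a setting also chosen after seeing the data, 347 member transcripts entered and 0 were called by limma, against backgrounds of 0.00363% lower and 0.0272% higher. At an unadjusted p below 0.05 there were 12 lower and 10 higher, against 2.97% and 3.58% of all transcripts.

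In MRPL37 the transcripts went both ways. Its main transcript in DMSO, ENST00000360840, was at 56.0, 85.3 and 75.1 FPKM in DMSO and 17.6, 3.79 and 16.1 FPKM with verteporfin (log2 fold change -2.65, adjusted p = 0.387 by limma on single transcripts). ENST00000605337 was at 0.102, 0.727 and 0.519 FPKM in DMSO and 0.239, 32.1 and 22.3 FPKM with verteporfin. ENST00000336230 was at 25.7 FPKM in DMSO replicate 1, at 21.8 and 20.3 FPKM with verteporfin replicates 1 and 2 and listed at 0 in the other libraries. How reads were shared between such overlapping transcripts, or with pseudogene copies, is not given in the sources used here.

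One protein-coding transcript of MRPL47, ENST00000392659, was listed at 0 in every DMSO library and was at 5.51, 2.73 and 1.66 FPKM with verteporfin, while the gene as a whole overlapped between the groups. It was picked from the 370 for this pattern after its values were seen, its adjusted p by limma on single transcripts was 0.374, and it is listed because its verteporfin mean passes the 0.5 FPKM minimum. Zeros were more common in every DMSO library than in any verteporfin library over all transcripts, as given above.

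In MRPL27 the 2 most abundant transcripts took turns between libraries. ENST00000225969 was at 42.6 FPKM in DMSO replicate 1 and 2.70 and 3.08 FPKM in the other DMSO libraries, while ENST00000511860 was at 41.8 FPKM in DMSO replicate 3 and 0.245 and 9.32 FPKM in the others. The sum per gene was steadier than either. MRPS12 also had uneven transcripts. ENST00000402029 was at 38.9, 14.4 and 18.6 FPKM in DMSO and 8.68, 11.5 and 7.94 FPKM with verteporfin, without overlap. ENST00000308018, slightly more abundant, was at 15.3, 28.1 and 11.9 FPKM in DMSO and 14.5, 14.9 and 24 FPKM with verteporfin. The next, ENST00000407800, was at 3.46, 3.78 and 14 FPKM in DMSO and 2.06, 4.24 and 4.66 FPKM with verteporfin, and like ENST00000308018 it overlapped between the groups. MRPL12 and MRPS26 had 1 listed transcript each.

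**Figure D5:**
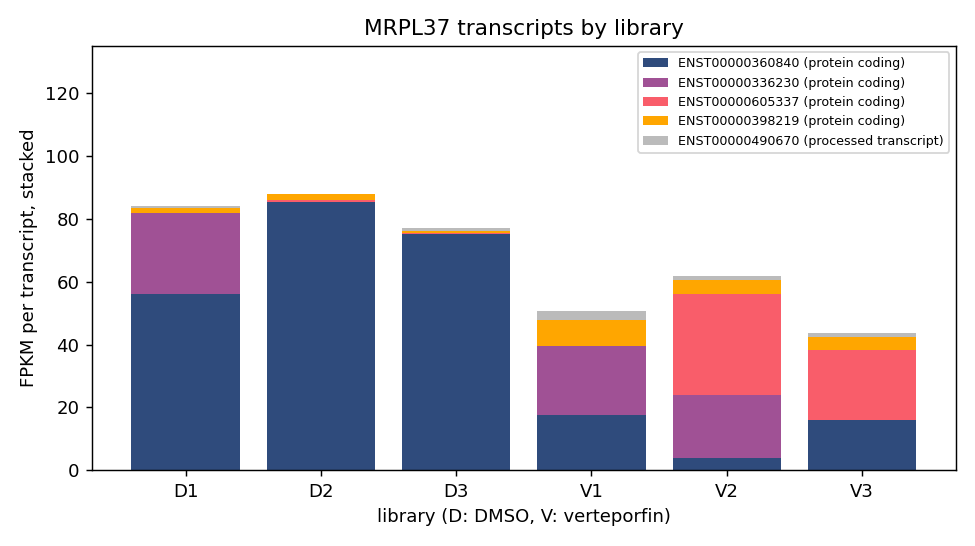
FPKM of the 5 listed MRPL37 transcripts stacked for each library, D1 to D3 for DMSO and V1 to V3 for verteporfin. ENST00000360840 makes up most of the DMSO bars and 17.6, 3.79 and 16.1 FPKM of the verteporfin bars.

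Promoters are shown for some of the members whose groups did not overlap. Genes of mitochondrial translation are known to carry sites for the factors NRF1 and GABP (an ETS factor) near their starts, and MYC binds the E-box. RefSeq promoter windows (GRCh38.p14, 250 bases before to 50 after a start) were found for 69 of the 78 members, in 85 windows. The motifs searched, on both strands, were GCGC, any 2 bases and GCGC again for NRF1, CCGGAAG for ETS factors and CACGTG for the E-box; no match of one overlapped a match of another in the windows shown. The ETS motif was in 33 of the 85 windows (38.8%), against 10.3% of all 35116 windows. The NRF1 motif was in 11 (12.9%, against 8.32%) and the E-box in 9 (10.6%, against 7.26%). Of the 15 windows of the 11 members without overlap 5 held the ETS motif (33.3%), 3 the NRF1 motif and 2 the E-box, and of the 70 windows of the other members 28 (40.0%), 8 and 7. A match is a run of letters and not evidence of binding. The windows below run 5′ to 3′ on the strand of the gene, with the motifs found in capitals.
MRPL27 (chr17:50373135-50373434, minus strand): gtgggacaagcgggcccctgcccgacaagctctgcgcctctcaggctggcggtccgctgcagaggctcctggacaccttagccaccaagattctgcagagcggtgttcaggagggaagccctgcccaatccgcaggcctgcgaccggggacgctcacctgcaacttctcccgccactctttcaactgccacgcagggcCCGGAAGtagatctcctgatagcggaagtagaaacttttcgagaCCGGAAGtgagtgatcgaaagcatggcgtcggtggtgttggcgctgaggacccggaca
MRPS12 (chr19:38930694-38930993, plus strand): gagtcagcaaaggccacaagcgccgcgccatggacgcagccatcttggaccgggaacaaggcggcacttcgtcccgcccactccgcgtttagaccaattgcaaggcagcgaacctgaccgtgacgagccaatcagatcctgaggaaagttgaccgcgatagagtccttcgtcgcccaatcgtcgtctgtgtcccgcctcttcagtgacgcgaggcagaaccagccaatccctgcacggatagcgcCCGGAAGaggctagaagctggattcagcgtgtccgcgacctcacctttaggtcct
MRPL37 (chr1:54199917-54200216, plus strand): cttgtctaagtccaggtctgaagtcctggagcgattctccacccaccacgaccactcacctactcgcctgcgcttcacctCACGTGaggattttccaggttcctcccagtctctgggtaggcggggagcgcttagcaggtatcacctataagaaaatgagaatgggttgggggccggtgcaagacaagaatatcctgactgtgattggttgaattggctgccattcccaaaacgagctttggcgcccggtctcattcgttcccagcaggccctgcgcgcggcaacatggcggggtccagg
MRPL36 (chr5:1799788-1800087, minus strand): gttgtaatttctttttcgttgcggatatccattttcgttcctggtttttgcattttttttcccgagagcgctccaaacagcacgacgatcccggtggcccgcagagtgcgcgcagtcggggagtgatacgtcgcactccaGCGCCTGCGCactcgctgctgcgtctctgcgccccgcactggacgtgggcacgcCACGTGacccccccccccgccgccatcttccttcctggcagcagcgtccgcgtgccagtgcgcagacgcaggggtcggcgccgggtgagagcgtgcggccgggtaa

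MRPL27 holds the ETS motif at 2 places just before its start, and MRPS12, which shares its start region with the mitochondrial seryl-tRNA synthetase gene SARS2 on the other strand, at 1. MRPL37 holds an E-box, and MRPL36 an NRF1 motif and an E-box. These 4 genes were picked from those whose verteporfin libraries were all below the DMSO libraries. Their levels were 8.12 to 20.6 against 25.1 to 52.9 FPKM in MRPL27, 27.5 to 37.7 against 46.4 to 58.5 FPKM in MRPS12, 43.6 to 61.8 against 77.2 to 88.0 FPKM in MRPL37 and 9.78 to 16.0 against 17.4 to 27.5 FPKM in MRPL36. Whether motifs and levels are linked was not tested. The windows of MRPL4, MRPL12, MRPL24 and MRPL55, whose groups also did not overlap, held none of the 3 motifs. Among the members without overlap that are not shown, MRPL30 held an NRF1 and an ETS motif and MRPS11 an NRF1 motif. MRPL18 held an ETS motif in 1 of its windows.

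Other genes of mitochondrial translation gave a mixed picture. Among the 5 mitoribosome proteins with other names 3 were below 0, also without both libraries numbered 2, and 5 without verteporfin replicate 2. None passed (0 also at an unadjusted p below 0.05 by limma). Their median was -0.38, and -0.14 without verteporfin replicate 2. GADD45GIP1 and CHCHD1 had log2 fold changes of -0.40 and -0.38, AURKAIP1 one of -0.50 and PTCD3 and DAP3 ones of 0.29 and 0.14. Of 27 genes of mitoribosome assembly 17 were below 0 (median -0.20) and 0 passed. There were 18 below 0 (median -0.17) without both libraries numbered 2, and the median stayed below 0 without each library (-0.21 to -0.13). The groups did not overlap for 1 gene that was higher (3.7%, against 6.49% of all genes) and 2 that were lower (7.41%, against 7.74%). METTL15, which methylates the RNA of the small subunit, was at 2.09, 1.87 and 1.40 FPKM in DMSO and 2.81, 4.87 and 3.54 FPKM with verteporfin, higher without overlap (log2 fold change 0.75, unadjusted p = 0.0468, adjusted p = 0.556 by limma). The 2 that were lower without overlap were MRM1, an rRNA methyltransferase, at 17.2, 12.5 and 15.4 FPKM in DMSO and 9.31, 10.4 and 10.6 FPKM with verteporfin (log2 fold change -0.52), and DHX30, an RNA helicase (-0.29). MTERF4 (-0.68) and TRUB2 (-0.48) were below 0 with overlap.

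Of 16 translation factors 10 were above 0 (median 0.10) and 0 passed, but the direction turned with single libraries. Without both libraries numbered 2 there were 10 below 0 (median -0.08), without DMSO replicate 1 12 below 0 (median -0.16) and without verteporfin replicate 2 13 below 0 (median -0.35). With the trend against G and C removed 11 were below 0 (median -0.07). Without verteporfin replicate 1 only 4 were below 0 (median 0.48), and without DMSO replicate 2 the median was 0.34. MTIF3, the initiation factor that keeps the subunits apart before a start, was at 8.41, 7.14 and 4.92 FPKM in DMSO and 9.37, 15.4 and 15.2 FPKM with verteporfin (log2 fold change 0.87, unadjusted p = 0.0291, adjusted p = 0.503). TUFM, which brings tRNAs to the ribosome, was at 202, 264 and 195 FPKM in DMSO and 159, 198 and 140 FPKM with verteporfin (log2 fold change -0.41, adjusted p = 0.697). MTFMT had a log2 fold change of -0.65 and OXA1L one of 0.39. Of 9 genes that copy or transcribe mitochondrial DNA 6 were below 0 (median -0.14) and 0 passed, with 0 at an unadjusted p below 0.05. Without both libraries numbered 2 the median was -0.36 and without verteporfin replicate 2 it was -0.38, while without verteporfin replicate 1 only 3 were below 0 and the median was 0.17. Without DMSO replicate 1 it was -0.27. POLRMT, the mitochondrial RNA polymerase that MRPL12 binds, was at 134, 63.9 and 139 FPKM in DMSO and 101, 35.7 and 67.8 FPKM with verteporfin (log2 fold change -0.75, adjusted p = 0.630).

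Genes for proteins of the cytosolic ribosome mostly lay on the other side of 0. Of 86 such genes tested 65 had a log2 fold change above 0, with a median of 0.23 against -0.14 for the mitochondrial members (0.25 and -0.04 after quantile normalization, 0.18 and -0.18 with equal medians), and 0 passed the test (2 higher and 0 lower at an unadjusted p below 0.05 by limma, against 4.36% and 4.48% of all genes). The median was 0.26 without both libraries numbered 2, 0.13 without DMSO replicate 3, 0.15 without DMSO replicate 1, 0.14 without verteporfin replicate 2 and 0.34 without DMSO replicate 2. Their groups did not overlap for 4 genes, all higher (4.65%, less than the 6.49% of all genes). Their summed level was 25158, 29942 and 24232 FPKM in DMSO and 32685, 31403 and 27705 FPKM with verteporfin, with overlap. The cytosolic sum was 9.36, 11.4 and 9.35 times the mitochondrial sum in DMSO and 17.1, 13.7 and 12.6 times in verteporfin, so that every verteporfin library had the higher ratio. The median shares of G and C were alike, 50.5% in the mitochondrial and 50.2% in the cytosolic genes. The cytosolic genes were far more abundant, with a median of 259 FPKM per gene against 23.5 FPKM. Whether the 2 families differ in their change was not tested.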

How the data were processed

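RNA of 6 NALM6 libraries, 3 with DMSO and 3 with verteporfin, was measured after a KAPA stranded preparation of total RNA, per the labels' protocols. The deposited values are FPKM per Ensembl transcript, computed by the authors, per the file headers. Per the submitters' processing notes the tools were StringTie 1.3.3, HISAT2 2.1.0, STAR, edgeR, cutadapt and FastQC, and the build was hg18; their order and roles are not given. Most identifiers carry suffixes of an annotation mapped back to an older build, so the build is uncertain and the expression values carry no coordinates. The first 62250 entries were used; 4765 later entries hold whole numbers and are not FPKM. A listed transcript averages 0.5 FPKM or more in at least 1 group. GENCODE 29 matched 61975 of them; 275 (0.442%) were left out.

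FPKM were summed to 13494 genes. Those with a mean of at least 0.5 FPKM were tested by limma 3.58.1 under R 4.3.3 on log2 values with a pseudocount of 1 (variance trend, 2-sided, treatment as the term). P-values were adjusted over 12952 genes after Benjamini and Hochberg, with a threshold of 0.05. All 78 members passed this minimum. Read depth is unknown, so precision rests on the spread between libraries. The members and lists were chosen with earlier results of these data known, so lists are described by counts and medians without a test. Named members were the 5 with the largest log2 fold change each way, the 5 with the smallest p, the 3 most abundant of each subunit and 16 fixed genes, and of each other list up to 4 genes with the smallest p; members without overlap, and others named with their values, were added after their values were seen. Alternatives were no minimum, a minimum of 5 FPKM, quantile normalization, equal medians, pseudocounts of 0.01 and 0.1, no variance trend, library weights, a replicate block, protein-coding transcripts only, the most abundant transcript only, subunits by structure and leaving out each library. Removing the trend against G and C (lowess), leaving out both libraries numbered 2 and testing single transcripts were added after seeing the data. The test was tried on simulated data. Sums and figures were made with numpy 2.4.6, pandas 2.3.3, matplotlib 3.10.9 and scipy 1.17.1 on Python 3.11.15.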

Additional observations from a re-analysis of the deposited data

Results flagged for a closer look

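Outside the FPKM values, whole-number entries under repeated identifiers were listed for 5 members. For MRPL2 they were 0 in each DMSO library and 1, 6 and 1 in verteporfin replicates 1, 2 and 3, a sum of 8. For MRPS6 they were 0 in each DMSO library and 4, 8 and 0 in verteporfin, a sum of 12. Both sums are above the DMSO sums of 0, but MRPS6 was at 0 in verteporfin replicate 3 as in DMSO. MRPL47, MRPS18B and MRPS35 had sums of 8, 1 and 2 in DMSO and 2, 0 and 1 in verteporfin. What these entries count is not given in the sources used here, and they were used in no test.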

How the results depend on the processing

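The count of 0 members called held under each gene-level setting run except library weights, which called 7, with MRPS33 higher and MRPL27, MRPL4, MRPL11, MRPL37, MRPS26 and MRPS34 lower, against 5.35% and 3% of all genes. The weights were 0.416, 0.363 and 3.88 for verteporfin replicates 1, 2 and 3, and the weights stopped short of their convergence tolerance. With a replicate block 0 members were called, with 15 lower and 1 higher at an unadjusted p below 0.05 (backgrounds 9.45% and 8.24%), and over all genes 84 calls replaced 2. Same-numbered libraries correlated at 0.389, 0.509 and 0.098 in their deviations; nothing in the labels pairs them. The medians of the large and small subunit and their difference moved by less than the spread of the libraries under each gene-level setting. Without single libraries they ranged from -0.37 to -0.10, from -0.21 to 0.054 and from -0.22 to -0.07. With the most abundant transcript only the 2 medians were -0.345 and 0.0016, further apart than the pooled SD of 0.263 given above, which was taken with transcripts summed per gene. Log2 fold changes of several named members turned sign under some settings, and the cause was not tested. Some of these members were near 0 in the main fit, but MRPS12 (-0.64), MRPL45 (0.43), MRPL48 (0.41) and MRPS22 (0.37) were not. With library weights MRPL3 was at 0.15, MRPL44 at 0.039, MRPL58 at -0.021, MRPS16 at 0.33, MRPS36 at -0.0059 and MRPS5 at 0.027. With quantile normalization MRPL3 was at 0.0048, MRPL44 at 0.0445, MRPS16 at 0.033, MRPS5 at 0.0245 and MRPS7 at 0.039. With the most abundant transcript only MRPL48 was at -0.48, MRPS12 at 0.0052, MRPS16 at 0.90, MRPS18C at -0.63, MRPS5 at 0.10 and MRPS7 at 0.11. With protein-coding transcripts only MRPS18C was at -0.018 and MRPS5 at 0.10. With the G and C trend removed MRPS18C was at -0.066 and MRPS36 at -0.091. Without both libraries numbered 2 MRPL58 was at -0.15, MRPS16 at 0.24, MRPS18C at -0.18, MRPS30 at -0.10 and MRPS36 at -0.056. Leaving out single libraries gave ranges across 0 for MRPL10 (-0.66 to 0.15), MRPL3 (-0.44 to 0.22), MRPL44 (-0.11 to 0.10), MRPL45 (-0.026 to 0.75), MRPL58 (-0.22 to 0.27), MRPS16 (-0.29 to 0.12), MRPS18C (-0.25 to 0.55), MRPS22 (-0.21 to 0.87), MRPS36 (-0.20 to 0.38), MRPS5 (-0.32 to 0.054) and MRPS7 (-0.29 to 0.15). Of 530 values of single members under other settings 478 kept direction and call, 45 turned sign and 7 passed.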
